A study of Homo sapiens with 34 samples.

Results

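The genes described here are 10 that mark folding stress in the endoplasmic reticulum (ER): the luminal chaperones and folding enzymes HSPA5, HSP90B1, CALR, PDIA4, SDF2L1 and DNAJB9, the ER membrane protein HERPUD1, and the sensors ATF6 and ERN1 with the transcription factor XBP1. They were chosen by symbol, as genes known for these roles, with earlier results of these data known. Each of the 10 was found in 1 row of the expression tables, which hold 28690 loci. All 10 passed the filter of a mean of at least 0.5 FPKM (fragments per kilobase of transcript, scaled to library size) over the RNA-seq libraries, as did 15339 loci in all. The cells were U2OS, a human osteosarcoma line, stably carrying the clock reporter Bmal1:luc. They were synchronised with dexamethasone and kept in 5 mM 6AN (6-aminonicotinamide, an inhibitor of the pentose phosphate pathway) or in the vehicle DMSO as a control. RNA-seq covered 12 time points labelled 0 to 44 hr, 4 hr apart, with 1 library for each condition and time point, and ChIP-seq of the clock factors BMAL1 and CLOCK gave 1 library per antibody and condition.

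The unfolded protein response (UPR) adjusts the folding capacity of the ER to its load. HSPA5 (also known as BiP) binds unfolded proteins, and when it is drawn away the sensors are released: ERN1 (IRE1) splices XBP1 mRNA, ATF6 is cut by Golgi proteases to a transcription factor, and PERK, encoded by EIF2AK3, phosphorylates eIF2alpha. Phosphorylated eIF2alpha raises translation of ATF4, and this last arm is shared with other kinases as the integrated stress response, which can run without ER stress. The comparison below therefore sets the ER chaperones and sensors beside ATF4 and other genes of the integrated stress response.

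Depth can be compared within a table only. Relative depth, read from the step size of low FPKM values, was 0.586 to 1.28 of the table median in DMSO and 0.697 to 1.26 in 6AN. No pair of libraries was identical, and the median correlation across loci (log2 values) was 0.917 within DMSO and 0.910 within 6AN. Of the markers of the line, VIM had a median of 899 FPKM in DMSO and RUNX2 of 13.3 FPKM. The bone matrix genes SPARC and COL1A1 were lower in 6AN, with median log2 ratios of -1.37 and -2.08, while VIM stood at -0.30 and RUNX2 at -0.02. Markers of other cells were low: PTPRC did not exceed 0.446 FPKM, ALB 0.104 FPKM and EPCAM 1.69 FPKM. The part of the line markers' shift in the results below was not tested.

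The promoters of several UPR genes are known for the ER stress response element (ERSE), the site bound by ATF6 and XBP1, or for its shorter form ERSE-II. Windows from 250 bases before to 50 after each RefSeq start site (GRCh38.p14) were searched on both strands. ERSE was searched as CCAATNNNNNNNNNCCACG, ERSE-II as ATTGGNCCACG, the ATF4 element CARE as TGATGNAAT and the BMAL1:CLOCK E-box as CACGTG. The E-box was added after the peaks were seen. ERSE was found in 4 of the 10 genes (HSPA5, HSP90B1 with 2 copies, CALR and XBP1) and in 0.0769% of the 35116 windows of all genes. ERSE-II was found in SDF2L1 and HERPUD1 and in 0.0541% of all windows. CARE was in none of the 10 and in 0.991% of all windows, and an E-box was in HSP90B1, DNAJB9 and HERPUD1 and in 7.26% of all windows. No 2 matches overlapped in any of the 10 genes. The 10 are counted as genes and the background as windows, which include those of the 10. The genes were chosen for known roles in the UPR, so these shares describe a chosen set and were not tested. A match is a string of letters and not a measured site.

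Below are the 250 bases before the start site, 5′ to 3′ on the strand of the gene, with the matches in capitals. The first 3 are shown because these genes carry an ERSE and were the members whose time trends differed between 6AN and DMSO, HERPUD1 for its ERSE-II (the second run of capitals, after an E-box), and DNAJB9 for a BMAL1 peak over its promoter. The intervals are chr9:125241344-125241593 (minus strand) for HSPA5, chr19:12938359-12938608 (plus) for CALR, chr22:28800570-28800819 (minus) for XBP1, chr16:56931892-56932141 (plus) for HERPUD1 and chr7:108569624-108569873 (plus) for DNAJB9.
HSPA5: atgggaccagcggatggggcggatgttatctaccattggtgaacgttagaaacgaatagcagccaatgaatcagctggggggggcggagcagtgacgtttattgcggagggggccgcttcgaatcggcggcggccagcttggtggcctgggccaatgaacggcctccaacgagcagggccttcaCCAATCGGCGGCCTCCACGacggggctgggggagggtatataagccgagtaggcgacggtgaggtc
CALR: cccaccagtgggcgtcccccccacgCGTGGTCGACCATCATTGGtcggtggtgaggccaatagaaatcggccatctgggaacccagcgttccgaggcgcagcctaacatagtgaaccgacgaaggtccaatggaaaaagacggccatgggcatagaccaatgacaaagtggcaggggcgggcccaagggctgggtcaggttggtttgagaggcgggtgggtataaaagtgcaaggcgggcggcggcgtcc
XBP1: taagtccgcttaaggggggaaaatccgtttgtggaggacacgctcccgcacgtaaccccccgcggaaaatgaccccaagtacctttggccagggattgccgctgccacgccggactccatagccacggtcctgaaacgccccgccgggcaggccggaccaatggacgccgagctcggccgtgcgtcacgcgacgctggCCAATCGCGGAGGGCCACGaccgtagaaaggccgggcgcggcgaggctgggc
HERPUD1: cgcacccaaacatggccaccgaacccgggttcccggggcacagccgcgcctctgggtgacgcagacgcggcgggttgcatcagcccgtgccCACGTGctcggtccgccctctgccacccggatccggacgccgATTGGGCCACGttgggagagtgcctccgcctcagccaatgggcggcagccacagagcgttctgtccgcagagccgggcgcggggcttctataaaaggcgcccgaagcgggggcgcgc
DNAJB9: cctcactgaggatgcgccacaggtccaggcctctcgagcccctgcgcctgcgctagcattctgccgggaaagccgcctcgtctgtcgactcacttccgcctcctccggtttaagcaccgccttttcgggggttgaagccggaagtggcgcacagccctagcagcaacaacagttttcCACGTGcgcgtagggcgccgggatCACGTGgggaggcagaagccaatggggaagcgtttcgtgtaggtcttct

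**Figure D1:**
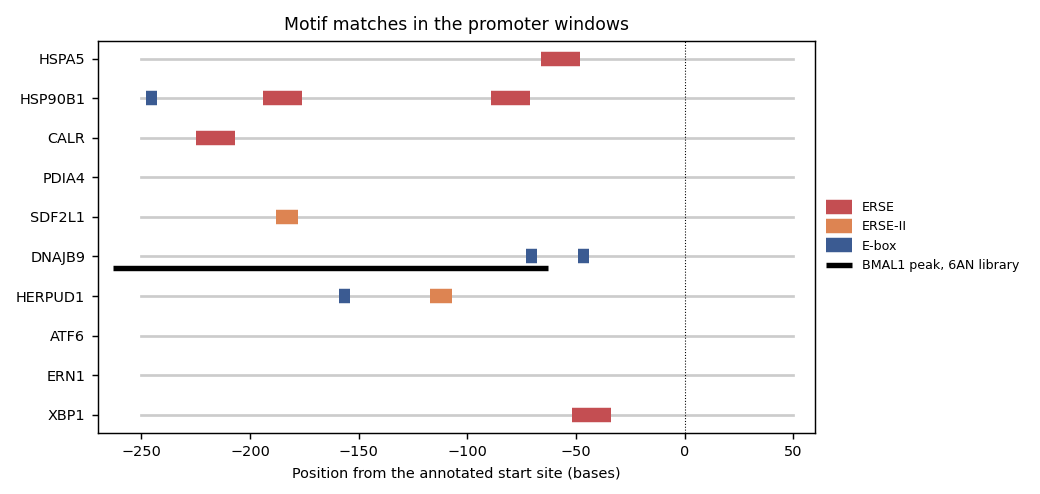
Matches to ERSE (red), ERSE-II (orange) and the E-box (blue) in the promoter window of each gene, by position in bases from the annotated start site (dotted line). The black bar is the BMAL1 peak of the 6AN library at DNAJB9, from position -263 to -63. PDIA4, ATF6 and ERN1 hold no match in the window drawn.

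The ERSE of HSPA5 lay at positions -66 to -48 from the start site, and that of XBP1 at -52 to -34, both on the strand of the gene. The ERSE of CALR lay on the other strand at -225 to -207. HSP90B1 held 1 copy on each strand, at -194 to -176 and -89 to -71. The ERSE-II matches lay at -188 to -178 in SDF2L1, on the other strand, and at -117 to -107 in HERPUD1.

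The 10 genes covered a wide range of levels in control cells. On the FPKM scale, which is per transcript length, the median over 12 DMSO libraries ran from 653 for CALR to 3.07 for ERN1. CALR and HSP90B1 (552) overlapped in range and stood above HSPA5 (170), which stood apart from SDF2L1 (78.6), XBP1 (56.7) and PDIA4 (56.0). HERPUD1 followed at 38.6, and ATF6 (11.4) and DNAJB9 (10.3) overlapped each other. In 6AN CALR, HSP90B1 and HSPA5 kept the first 3 places, XBP1 had a median of 72.4 and SDF2L1 of 49.5, and XBP1 was above SDF2L1 at all 12 time points, whereas in DMSO SDF2L1 was above XBP1 at all 12.

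The level of each gene in 6AN was compared with that in DMSO as the log2 ratio of FPKM + 1 at matched times. The tables were normalised separately and hold 1 library per time point, so these ratios are descriptions and were not tested. The spread given is the SD of the 12 ratios. Of the 6 luminal members 5 had a median ratio below 0 (all but DNAJB9), and HERPUD1, ERN1 and XBP1 had one above 0. CALR and PDIA4 were lower in 6AN with no overlap between the 12 values of each condition, ERN1 was higher with no overlap, and the other 7 genes overlapped. Over all expressed loci, 9.57% were lower and 5.44% higher without overlap (counts of 1468 and 834). At every time point 6AN was lower for 3 of the 10 (CALR, PDIA4 and SDF2L1) against 19.2% of all loci, and higher for 2 (ERN1 and HERPUD1) against 12.2%. The median of the 10 ratios was -0.27, beside -0.02 for all expressed loci. Scaling the 24 libraries together moved the split of all loci from 834 higher and 1468 lower to 1088 and 1169, and left ERN1, CALR and PDIA4 as the members without overlap.

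**Figure D2:**
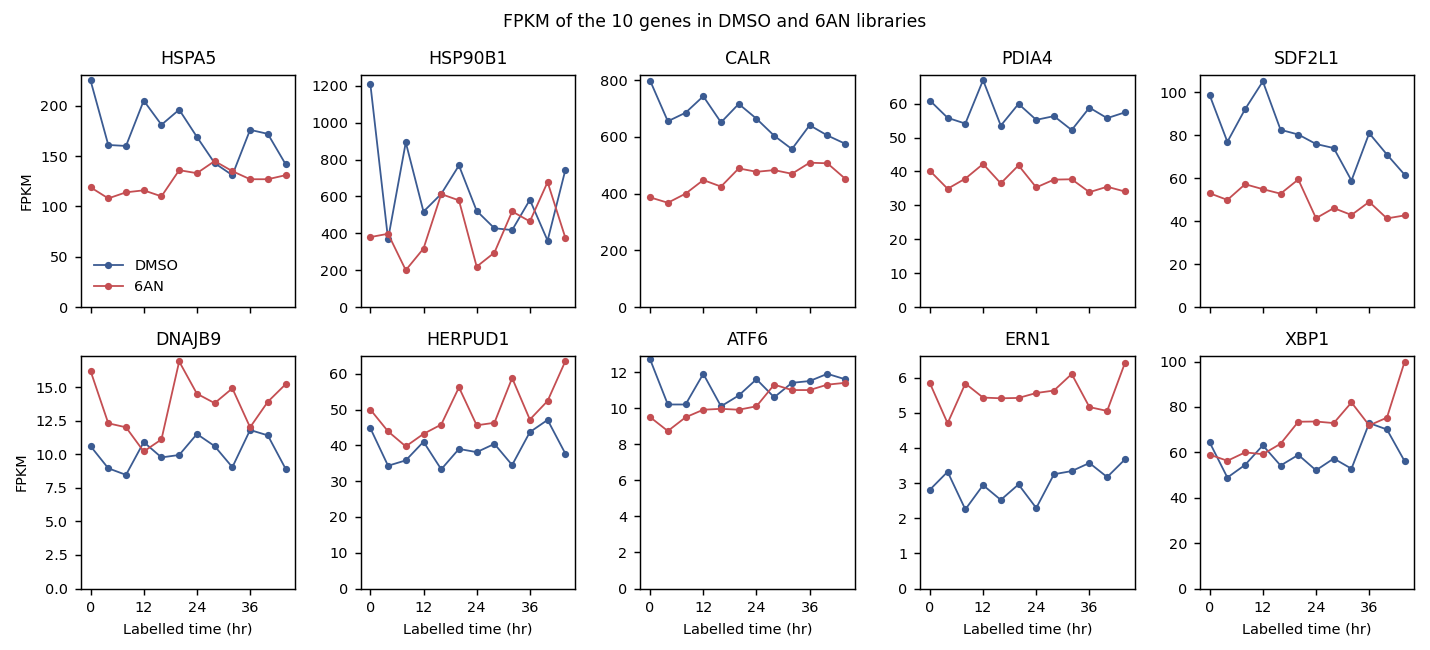
FPKM of each of the 10 genes (vertical axis, from 0) at each labelled time (horizontal axis, hr) in the DMSO (blue) and 6AN (red) series, 1 library per point. CALR, PDIA4 and SDF2L1 are lower in 6AN at all 12 time points, and ERN1 and HERPUD1 are higher at all 12. The HSPA5 lines meet at 28 and 32 hr.

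HSPA5 is the main Hsp70 chaperone of the ER lumen and the usual marker of the UPR. It ranged from 131 to 225 FPKM in DMSO, with a median of 170, and from 108 to 145 FPKM in 6AN, with a median of 127. It was lower in 6AN at 10 of 12 time points, with a median log2 ratio of -0.48 ± 0.31 (0.719-fold). The exceptions were 28 and 32 hr, where the DMSO values were 143 and 131 FPKM and the 6AN values 145 and 135.

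CALR encodes calreticulin, the lectin chaperone that retains glycoproteins until they fold. It ranged from 557 to 798 FPKM in DMSO (median 653) and from 368 to 509 FPKM in 6AN (median 462). All 12 values in 6AN were below all 12 in DMSO, with a median log2 ratio of -0.51 ± 0.26.

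PDIA4 is a protein disulphide isomerase. It ranged from 52.2 to 66.9 FPKM in DMSO (median 56.0) and from 33.9 to 42.2 FPKM in 6AN (median 37.0). The groups did not overlap, and the ratio was the steadiest of the 10, at -0.61 ± 0.10.

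SDF2L1 is a cofactor of HSPA5 in the lumen. It had the lowest ratio of the 10, -0.67 ± 0.16 (0.627-fold), with 58.9 to 105 FPKM in DMSO (median 78.6) and 41.3 to 59.4 FPKM in 6AN (median 49.5). Its groups overlapped through 1 value on each side, 58.9 FPKM at 32 hr in DMSO and 59.4 FPKM at 20 hr in 6AN.

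HSP90B1 encodes GRP94, the Hsp90 of the ER. Its row is shared with the microRNA gene MIR3652. It ranged from 361 to 1210 FPKM in DMSO (median 552) and from 201 to 678 FPKM in 6AN (median 389), and was lower in 6AN at 9 of 12 time points, at -0.47 ± 0.86. Its spread over the libraries was large in both conditions, with an SD of 0.53 (DMSO) and 0.56 (6AN) on the log2 scale against 0.23 and 0.13 for HSPA5. Rows with a mean of at least 50 FPKM that also hold a microRNA had a median SD of 1.01 in DMSO and 0.67 in 6AN (53 rows), against 0.12 and 0.13 for those of a single symbol (1818 rows). The ratio of HSP90B1 is therefore within its own spread.

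DNAJB9 (ERdj4), a co-chaperone that recruits HSPA5 and hands misfolded proteins to degradation, went the other way from the abundant chaperones. It ranged from 8.46 to 11.8 FPKM in DMSO (median 10.3) and from 10.2 to 16.9 FPKM in 6AN (median 13.8). It was higher in 6AN at 11 of 12 time points, at 0.38 ± 0.26. The exception was 12 hr, with 10.9 FPKM in DMSO and 10.2 in 6AN. The neighbouring gene THAP5 shares its interval in the tables and starts on the opposite strand. THAP5 had medians of 12.8 FPKM in DMSO and 12.2 in 6AN and a ratio of -0.04 ± 0.12, and no source used here states that the reads were counted by strand.

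HERPUD1, a membrane protein that serves the ubiquitin ligase of ER-associated degradation (ERAD), was higher in 6AN at 12 of 12 time points, at 0.22 ± 0.24. It ranged from 33.3 to 47.1 FPKM in DMSO (median 38.6) and from 39.7 to 63.5 FPKM in 6AN (median 46.8), so the groups overlapped.

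Of the sensors, ERN1, the kinase and RNase IRE1, had the highest ratio of the 10. It ranged from 2.25 to 3.67 FPKM in DMSO (median 3.07) and from 4.70 to 6.41 FPKM in 6AN (median 5.49). Each 6AN value was above each DMSO value, with a ratio of 0.70 ± 0.21 (1.63-fold on the FPKM + 1 scale), and 2.47% of expressed loci had a ratio at or above it. ATF6, the cleaved sensor, ranged from 10.1 to 12.7 FPKM in DMSO (median 11.4) and from 8.73 to 11.4 FPKM in 6AN (median 10.04), at -0.08 ± 0.12. It was lower in 6AN at 11 of 12 time points. Over the first 6 time points its values did not overlap, where 2426 of the 15339 expressed loci were also lower without overlap.

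XBP1, the transcription factor whose mRNA ERN1 splices, ranged from 48.9 to 72.9 FPKM in DMSO (median 56.7) and from 56.3 to 100 FPKM in 6AN (median 72.4). It was higher in 6AN at 9 of 12 time points, at 0.22 ± 0.29. The ratio had a median of 0.17 over the first 6 time points and 0.42 over the last 6. These are levels of the whole gene, and its spliced and unspliced forms were not analysed here.

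**Figure D3:**
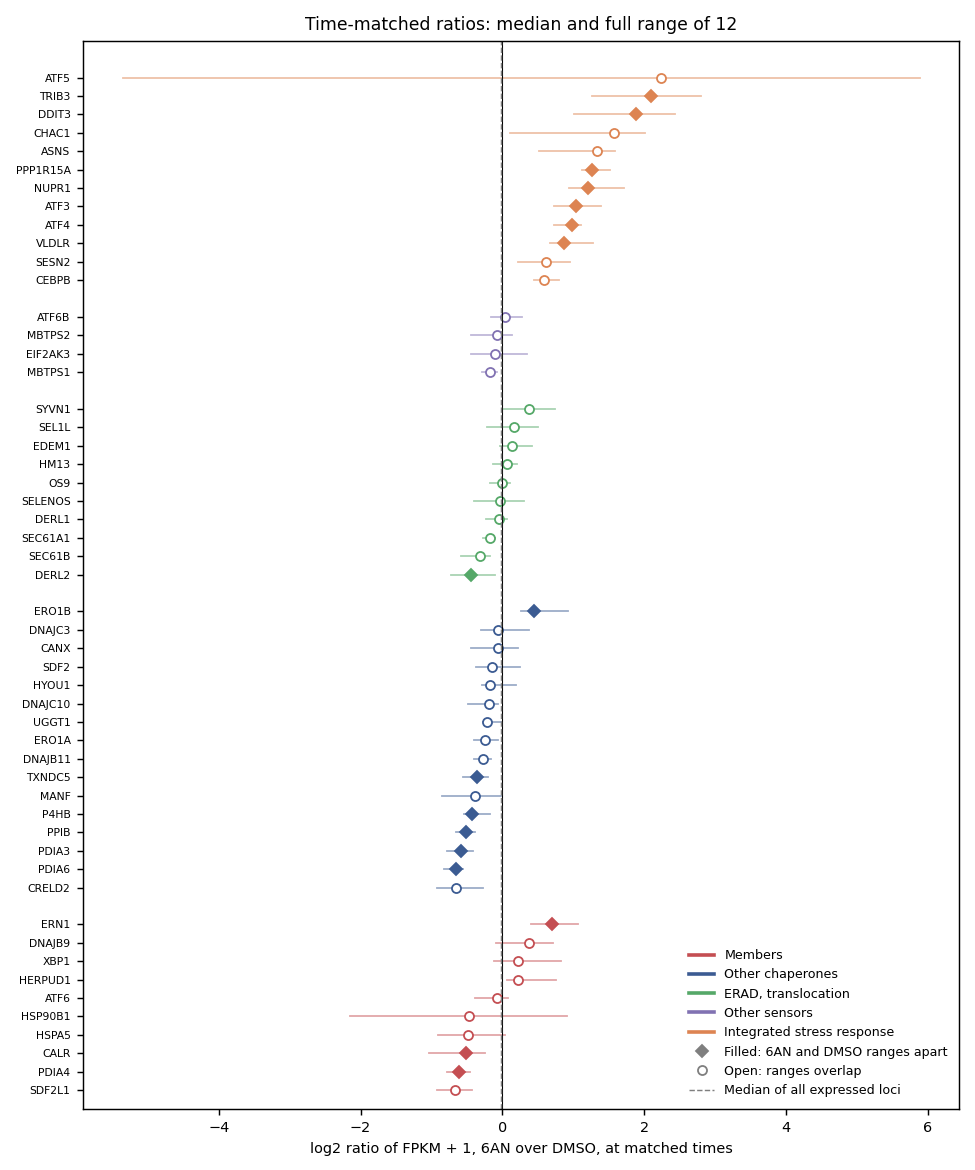
Median (symbol) and full range (line) of the 12 time-matched log2 ratios of FPKM + 1, 6AN over DMSO, for each expressed gene of the lists; filled diamonds mark genes whose 6AN and DMSO values do not overlap, open circles those that do, and the dashed line is the median of all expressed loci. The 12 genes of the integrated stress response all lie above 0, and 15 of the 16 other chaperones and folding enzymes lie below 0. The lists were chosen with earlier results of these data known.

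The other genes of the pathway were 31 in number, of which 30 were expressed (DERL3, a derlin, did not pass the filter). Of the 16 other chaperones and folding enzymes, 15 had a median ratio below 0, 11 were lower at every time point and 5 were lower without overlap (PDIA3, PDIA6, P4HB, PPIB and TXNDC5, whose row is shared with 4 other symbols). The median of the 16 was -0.25. Among all 15339 expressed loci 8125 had a median below 0, 19.2% were lower at every time point and 9.57% were lower without overlap. The lowest were the disulphide isomerase PDIA6, at -0.65 ± 0.07, and the secreted ER stress marker CRELD2, at -0.65 ± 0.20. The highest were ERO1B, an oxidase of disulphide isomerases, at 0.44 ± 0.21 and higher without overlap, and calnexin (CANX), the membrane partner of CALR, at -0.06 ± 0.20.

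ERAD and translocation genes were mixed, with 4 of 10 above 0 and 6 below, and a median of -0.02. SYVN1, the ligase that HERPUD1 serves, was highest at 0.37 ± 0.20, followed by its partner SEL1L at 0.16 ± 0.22. The lowest were DERL2, a derlin of the retrotranslocation channel, at -0.45 ± 0.16 and lower without overlap, and the translocon subunit SEC61B at -0.32 ± 0.13. The 4 remaining sensor genes lay between -0.18 and 0.03: ATF6B at 0.03 ± 0.12, the ATF6 protease MBTPS2 at -0.08 ± 0.20, EIF2AK3 at -0.10 ± 0.22 and the protease MBTPS1 at -0.18 ± 0.06.

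Of the 12 genes of the integrated stress response, all had a median ratio above 0, 11 were higher at every time point and 7 were higher without overlap, with a list median of 1.23. Among all 15339 expressed loci 6668 had a median above 0, 12.2% were higher at every time point and 5.44% were higher without overlap. The lowest ratios of the list were below that of ERN1. ATF4 itself had a ratio of 0.98 ± 0.14, with medians of 480 FPKM in DMSO and 967 in 6AN. DDIT3 (CHOP), which the PERK arm and other eIF2alpha kinases induce through ATF4, had a ratio of 1.88 ± 0.42, with 15.4 to 31.4 FPKM in DMSO and 52.7 to 122 FPKM in 6AN. The pseudokinase TRIB3 was at 2.10 ± 0.48, while the lowest of the list were CEBPB at 0.59 ± 0.11 and SESN2 at 0.62 ± 0.24. ATF5 had the highest median, 2.23, but its row is shared with MIR4751 and its ratio had an SD of 3.38. The 1.88 of DDIT3 stood beside -0.48 for HSPA5 in the same libraries. Of the 10 members, 6 had a median ratio below 0 and 4 above, with ERN1 highest at 0.70. The difference between the lists was not tested, and both rest on the same 24 libraries. Both lists were chosen with earlier results of these data known, so the counts beside all loci describe a chosen set.

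The time trend was tested within each table, as the slope of log2(FPKM + 1) per 24 hr in a limma fit that also held a 24 hr cosine and sine, with Benjamini-Hochberg adjustment over the 15339 loci and a locus was called where the adjusted p was 0.05 or lower. In DMSO, 3 of the 10 genes fell (HSPA5, CALR and SDF2L1) and none rose, where 2.63% of all loci fell and 2.29% rose. In 6AN, 4 rose (HSPA5, CALR, ATF6 and XBP1) and 1 fell (SDF2L1), where 9.83% of all loci rose and 11.8% fell. Each p-value measures the spread of single libraries around the curve, since no time point was repeated.

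HSPA5 fell by 0.31 ± 0.07 (SE, log2 per 24 hr) in DMSO (limma, adjusted p = 0.0476) and rose by 0.18 ± 0.05 in 6AN (adjusted p = 0.0251). The fall was called in 2 of the 12 fits that left out 1 time point, those without 16 or 36 hr, with an adjusted p of 0.0277 to 0.152 over the 12. The rise was called in 8 of 12 and lost without 0, 16, 28 or 32 hr, with an adjusted p of up to 0.0637. It was also lost without the 24 hr terms (0.0639) and by Spearman's rho (0.165).

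CALR fell by 0.23 ± 0.05 in DMSO (limma, adjusted p = 0.0263) and rose by 0.20 ± 0.05 in 6AN (adjusted p = 0.0316). Both calls were sensitive to single libraries. The fall was lost without 0, 8, 12, 28, 32, 40 or 44 hr (adjusted p of up to 0.0981) and the rise without 0, 4, 8, 16, 28, 32, 36 or 40 hr (up to 0.0917).

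SDF2L1 fell in both series, by 0.37 ± 0.08 in DMSO (limma, adjusted p = 0.0327) and by 0.26 ± 0.07 in 6AN (adjusted p = 0.0195). The fall in DMSO was lost without 0, 8, 12, 20, 32, 40 or 44 hr, with an adjusted p of up to 0.112, and that in 6AN without 32 hr (0.0501). The slopes differed by 0.10 ± 0.11, which did not pass the test (adjusted p = 0.650).

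The steadiest rises in 6AN were those of the UPR factors. XBP1 rose by 0.37 ± 0.05 (limma, adjusted p = 0.00123), from 59.0 FPKM at 0 hr to 100 at 44 hr, and ATF6 rose by 0.18 ± 0.03 (adjusted p = 0.00608), from 9.50 to 11.4 FPKM. Both were called without each of the 12 time points in turn. In DMSO their slopes were 0.03 ± 0.09 and 0.03 ± 0.06 and were not called. The other 5 genes were called in neither series. The largest slopes among them were those of HSP90B1 in DMSO, at -0.43 ± 0.27, and of HERPUD1 in 6AN, at 0.20 ± 0.08 (adjusted p = 0.109).

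**Figure D4:**
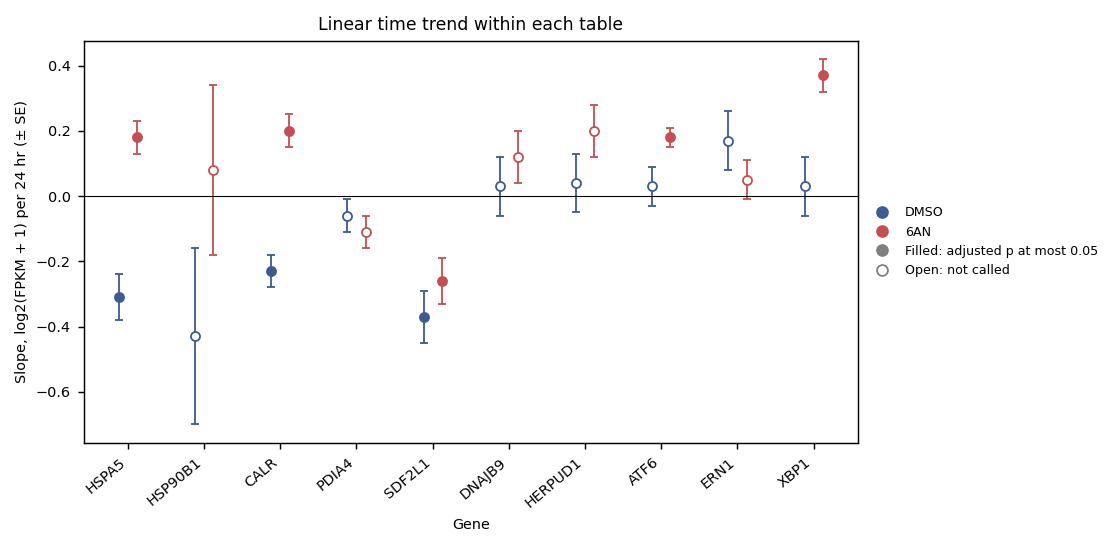
Linear slope of log2(FPKM + 1) per 24 hr (vertical axis, ± SE) of each gene in the DMSO (blue) and 6AN (red) series; filled points were called (adjusted p of 0.05 or lower). HSPA5 and CALR lie below 0 in DMSO and above 0 in 6AN, and XBP1 and ATF6 are called in 6AN alone.

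The difference between the slopes in 6AN and DMSO was tested as an interaction, in which a constant factor between the tables drops out. It was positive and called for HSPA5, CALR and XBP1, and negative for none, where 2.99% of all loci were called positive and 4.23% negative. The difference was 0.49 ± 0.09 for HSPA5 (limma, adjusted p = 0.00242), 0.43 ± 0.07 for CALR (0.00153) and 0.34 ± 0.10 for XBP1 (0.0496). The calls of HSPA5 and CALR were kept without each time point in turn, with an adjusted p of up to 0.0169 and 0.0149, but that of HSPA5 was lost in a fit without the 24 hr terms (0.35, adjusted p = 0.0507). That of XBP1 was kept in 3 of 12 such fits, those without 16, 36 or 40 hr, and its adjusted p reached 0.236. It was also lost with the time point as a block (adjusted p = 0.1), with no filter (0.0703) and without the 24 hr terms (0.117). The difference for ATF6 was 0.15 ± 0.07 and did not pass (adjusted p = 0.213), so its trend was not shown to differ between the series.

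The gap between the conditions was smaller late than early in HSPA5 and CALR. The median log2 ratio of HSPA5 was -0.64 over the first 6 time points and -0.23 over the last 6, and that of CALR -0.75 and -0.33. The HSPA5 values of DMSO and 6AN did not overlap over the first 6 time points and overlapped over the last 6. Of the 15339 expressed loci, 2426 were lower without overlap over the first 6 and 2971 over the last 6. The gap of PDIA4 did not narrow, with -0.56 and -0.63, nor did that of SDF2L1, with -0.66 and -0.69.

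Among the other genes of the pathway, 3 of 30 rose and 1 fell in DMSO, 6 rose and 3 fell in 6AN, and the slopes of 2 differed, both positively. These counts stand beside 2.29% of all loci rising and 2.63% falling in DMSO, 9.83% and 11.8% in 6AN, and 2.99% with a positive difference. These 2 were CANX, with a difference of 0.33 ± 0.05 (limma, adjusted p = 0.00053), and the reductase DNAJC10, with 0.17 ± 0.05 (adjusted p = 0.0328), which was lost without 0, 8, 12, 28 or 36 hr (adjusted p of up to 0.138). Of the 12 genes of the integrated stress response, 4 rose in DMSO, 7 rose in 6AN and none fell, beside the same shares of all loci. DDIT3 rose by 0.61 ± 0.08 in 6AN (limma, adjusted p = 0.000784) and ATF4 by 0.17 ± 0.03 (0.00503). In DMSO the slope of ATF4 was 0.32 ± 0.07 (adjusted p = 0.0385), called in 2 of the 12 fits that left out 1 time point. That of DDIT3 in DMSO was 0.31 ± 0.14 and was not called (0.278). The differences, -0.15 ± 0.08 for ATF4 (0.291) and 0.30 ± 0.16 for DDIT3 (0.321), did not pass. Neither trend was therefore shown to differ between the series.

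No 24 hr rhythm was called for any of the 10 genes by the limma F test, where 0.00652% of all loci were called in DMSO (1 locus) and 0% in 6AN. At an unadjusted p under 0.05 there were 992 loci in DMSO and 1170 in 6AN. HSPA5 had the lowest unadjusted p of the members in DMSO (limma, p = 0.0179, adjusted p = 0.735, amplitude 0.21 log2), and DNAJB9 in 6AN (p = 0.0151, adjusted p = 0.543, amplitude 0.22).

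The 5 single-symbol loci whose course was most like that of HSPA5, by the mean of Pearson's r over the 12 libraries of each table, were RIN1 (mean r 0.86), CALR (0.83), SHC1 (0.83), CANX (0.83) and CDV3 (0.82). Each r shares its 12 libraries, with their depth and trend, and is a description. Of the other members, XBP1 had a mean r of 0.59, ATF6 and DNAJB9 of 0.54 and HERPUD1 of 0.50. SDF2L1 had r = 0.82 in DMSO and -0.46 in 6AN, and ERN1 -0.33 and 0.38. HSP90B1 had r = 0.49 in DMSO and 0.01 in 6AN, and PDIA4 0.69 and -0.00. For the 12 genes of the integrated stress response, r with HSPA5 ran from -0.59 (DDIT3) to -0.02 (ATF5) in DMSO. In 6AN it ran from 0.10 (ATF5) to 0.84 (NUPR1), beside 0.76 for CALR.

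None of the 147 sites with both BMAL1 and CLOCK peaks in DMSO, or of the 439 in 6AN, was assigned by the authors' annotation to any of the 10 genes. Of the 4001 merged peaks of single libraries, 2 lay within 10000 bases of a member locus (hg38), both called in the BMAL1 library of 6AN alone. One, of 201 bases at chr7:108569611-108569811, lay over the DNAJB9 promoter at positions -263 to -63 from its start site, with a HOMER peak score of 17.1. It contained the first of the E-boxes in the sequence above, at -73 to -68, and not the second, at -49 to -44. It also lay over the windows of THAP5, which starts nearby in the other direction. The other peak, with a score of 14.6, was 9218 bases from the HSP90B1 locus. With 1 library per antibody and condition, a peak called in one library and not in another has no replicate check. The paper gives a single incubation time for this chromatin, so the peaks do not follow the time course of the RNA-seq. The share of all loci with a shared site or a nearby peak was not worked out. These counts therefore do not set the 10 genes apart from others.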

How the data were processed

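RNA-seq (single-end reads) was processed by the authors with TopHat and Cufflinks and deposited as FPKM per locus (hg38), in a table for DMSO and one for 6AN, each normalised over its own 12 libraries. Columns that hold locus names were used for symbols and positions. For ChIP-seq the authors called peaks with HOMER and deposited a peak score per merged peak or site, with the name of the peak in each library. Bowtie and Bowtie2 stand in the submitters' notes; tool versions were not given in the sources used here. Raw counts were not used, so depth is known only relative to the table median.

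Loci with a mean of at least 0.5 FPKM were kept, and log2(FPKM + 1) was used throughout, which understates changes of low genes. Trends, rhythms and their difference were fitted with limma 3.58.1 in R 4.3.3 (empirical Bayes with an intensity trend), two-sided, with Benjamini-Hochberg adjustment over 15339 loci. The fits were tested on simulated data with independent noise and known changes of 0.5 log2. These changes were larger than the called slopes and differences of the members, so that test does not vouch for those calls. Levels were compared as time-matched ratios without a test. Tables were handled in Python 3.11.15 with pandas 2.3.3. Promoters came from RefSeq (GRCh38.p14) and matched all 10 genes; for XBP1 and PDIA4 a second window held no match. Protein sequences were not used here.

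The members and the gene lists were chosen with earlier results of these data known. Named genes were all members, the 2 highest and 2 lowest ratios of each other list, ATF4 and DDIT3, and the 5 loci most like HSPA5; genes without overlap or with a called difference were also named, after their values were seen. Hours of the RNA-seq libraries are those of the labels. For these libraries, hours since addition of 6AN, and whether a library pools several extractions, are not stated. For the BMAL1 and CLOCK ChIP-seq the paper does state the time, a single length of incubation with 6AN or DMSO.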

Additional observations from a re-analysis of the deposited data

Results flagged for a closer look

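These results were singled out because the interaction test found a different time trend in 6AN than in DMSO (limma, log2 per 24 hr, 6AN minus DMSO). Among the members they were HSPA5 (0.49), CALR (0.43) and XBP1 (0.34). Among the other genes of the pathway they were CANX (0.33) and DNAJC10 (0.17). Among the genes of the integrated stress response they were TRIB3 (0.71), SESN2 (0.32) and CHAC1, which rose in DMSO by 1.29 ± 0.16 and not by a called amount in 6AN (0.21 ± 0.07), a difference of -1.08. The call of SESN2 was lost without 0, 8, 12, 28, 32 or 44 hr (adjusted p of up to 0.0862), that of DNAJC10 without 0, 8, 12, 28 or 36 hr (up to 0.138), and that of XBP1 in 9 of the 12 fits that left out 1 time point (up to 0.236).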

How the results depend on the processing

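The level comparison kept its direction in each of the 10 members under every alternative run on it. ERN1 is below a mean of 5 FPKM, so that filter left 0 members higher without overlap and a median over the remaining members of -0.47. Over the first 6 time points 5 members were lower without overlap (with HSPA5, SDF2L1 and ATF6), and ERN1 was higher. Over the last 6 time points CALR, PDIA4 and SDF2L1 were lower without overlap, and 2 were higher (ERN1 and DNAJB9). Over all loci the counts were 1588 higher and 2426 lower for the first 6, and 1818 and 2971 for the last 6. Fewer libraries make such separation easier. The falls in DMSO were the least stable: 1 of the 3 remained with no filter on low loci, 1 without the 24 hr terms and 0 by Spearman's rho against random orders, which also called 0 of the members falling in 6AN. Without the 24 hr terms 1 member was called in the difference (CALR; HSPA5 had an adjusted p of 0.0507), and XBP1 was lost there (0.117), with no filter (0.0703) and with the time point as a block (0.1). With that block HSPA5 and CALR stayed called. The only rhythm call in DMSO was lost without the linear trend (0). Leaving out 1 time point gave 452 to 665 trend calls in DMSO (756 with all) and 2119 to 3286 in 6AN (3314), 699 to 1049 differences (1107) and 0 to 2 rhythms in DMSO. Member counts then ran from 0 to 3 falling in DMSO, 2 to 4 rising and 0 to 1 falling in 6AN. A window of 1000 bases held 1 peak and one of 50000 bases held 4, at 3 members. Each member has 1 row, so summing rows changed no value. No called trend of a member reversed. The cause of these changes was not tested.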
